A study of Mus musculus with 6 samples.

Results

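The 10 genes described here belong to platinum, copper and drug transport and to metal binding in a mouse lung cancer cell line. They are the copper importer Slc31a1 and its relative Slc31a2, the copper ATPases Atp7a and Atp7b, the ABC exporters Abcb1b, Abcc1, Abcc4 and Abcc5, and the metallothioneins Mt1 and Mt2. They make up 10 of the 34745 genes in the count tables and were taken as the entries whose gene name equals one of these symbols, which found all 10. RNA came from 889 cells, a murine line (889-DTC) labelled lung and C57BL/6. In 3 libraries (sg-con) the cells carried Cas9 with a control sgRNA, for which the study's methods name a plasmid with an EGFP sgRNA, and in 3 libraries (sg-kiaa1522) Cas9 with an sgRNA against mouse kiaa1522. The kiaa1522 guides and the control guide were carried by different lentiviral plasmids, and transduced cells were selected by puromycin or sorting. No cisplatin is named for the sequenced cells, which of the study's guides they carried was not given in the sources used here, and nothing says whether the replicates were separate cultures or clones. P-values therefore measure the spread between these libraries, which may be technical. The study asks how kiaa1522 bears on the response to platinum, and these genes are the routes by which platinum and other drugs are known to be taken up, pumped out or bound.

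Cisplatin enters cells in part through the copper importer Slc31a1 and in part by other channels and diffusion. Copper is handed by chaperones to the ATPases Atp7a and Atp7b, which pump it into the secretory pathway or out of the cell and have been linked to platinum export. ABC transporters use ATP to expel drugs and conjugates, the P-glycoproteins mainly hydrophobic compounds and the Abcc family mainly organic anions and glutathione conjugates. Metallothioneins are small cysteine-rich proteins that hold zinc and copper and can bind platinum, and their genes are switched on by the zinc sensor Mtf1 at metal response elements.

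The targeted gene, listed as C77080, was not lower at the level of RNA in the libraries labelled sg-kiaa1522. Its TMM-normalized level, in CPM (counts scaled to library size), was 127, 130 and 124 in the sg-con libraries and 210, 203 and 216 in the libraries labelled sg-kiaa1522. It was higher in all 3 of the latter, by 0.73 on the log2 scale (SE 0.0569, adjusted p = 9.1e-05 by the quasi-likelihood test in edgeR, Benjamini-Hochberg method). An RNA count does not show whether the protein is lost, so sg-kiaa1522 below means the libraries with that label. The libraries held between 12220001 and 18609376 counts, and a floor of 3 counts lay between 0.162 and 0.247 CPM. Of the markers of an epithelial line, Krt18 ranged from 1810 to 2250 CPM while Epcam had no count in any library, and Cdh1 was 52.1 to 61.8 CPM in sg-con and 19.3 to 21.3 CPM in sg-kiaa1522. The lung factor Nkx2-1 differed within both groups, at 55.7, 59.1 and 13.6 CPM in sg-con and 10.9, 9.49 and 39.5 CPM in sg-kiaa1522. Other epithelial markers separated the groups, Krt19 at 673 to 870 CPM in sg-con and 453 to 521 CPM in sg-kiaa1522 and the surfactant gene Sftpb at 17.0 to 24.0 against 12.3 to 15.6 CPM. Scgb1a1 was 16.8 CPM in sg-con replicate 1 and 1.53 to 4.42 CPM in the other 5 libraries. The summed CPM of 5 leukocyte markers was 2.27 to 6.03 in sg-con and 11.0 to 13.9 in sg-kiaa1522. Cd68 made up most of the latter, whereas Ptprc stayed at or below 0.803 CPM and Cd3e had no count. Lyz2 went the other way, at 3.62, 0.971 and 2.22 CPM in sg-con and 0.906, 0.927 and 0.942 CPM in sg-kiaa1522. Summed CPM of 4 fibroblast markers, nearly all of it Col1a2, was 425 to 442 in sg-con and 145 to 164 in sg-kiaa1522, and that of 3 endothelial markers was at most 1.38 in every library. The part of these differences in the results that follow was not tested.

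The start regions of the members that carry the results are shown first, from 250 bases before to 50 bases after the annotated start, as RefSeq gives them on GRCm38.p6, 5′ to 3′ on the gene's strand. RefSeq sequences matched 9 of the 10 members. For Mt1 (chr8:94178839-94179138, plus strand) and Mt2 (chr8:94172368-94172667, plus strand), capitals mark the core of the metal response element, TGCACNC or TGCGCNC on either strand, because these sites tie the metallothioneins to free zinc and copper.
Mt1: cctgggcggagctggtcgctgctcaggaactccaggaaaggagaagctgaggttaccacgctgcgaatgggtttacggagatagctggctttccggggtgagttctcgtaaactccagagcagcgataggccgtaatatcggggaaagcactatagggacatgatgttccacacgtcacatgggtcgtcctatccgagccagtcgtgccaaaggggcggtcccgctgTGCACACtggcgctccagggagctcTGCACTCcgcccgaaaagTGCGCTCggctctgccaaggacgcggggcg
Mt2: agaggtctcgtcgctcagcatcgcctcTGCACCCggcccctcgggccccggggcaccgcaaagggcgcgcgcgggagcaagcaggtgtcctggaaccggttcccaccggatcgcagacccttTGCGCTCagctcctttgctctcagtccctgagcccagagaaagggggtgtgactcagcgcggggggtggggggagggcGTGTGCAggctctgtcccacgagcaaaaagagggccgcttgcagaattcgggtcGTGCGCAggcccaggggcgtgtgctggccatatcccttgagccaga
Mt1 held 3 such cores near the end of the window and Mt2 held 4 spread along it. One or more cores stood in 25.6% of the 27025 start regions of this length, 2 or more in 7.11% and 3 or more in 2% of them.

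For Atp7b (chr8:22060025-22060324, minus strand), the copper ATPase that differed most, capitals mark its single metal response core. This RefSeq start lies 231 bases inside the GENCODE gene, so that the core is within that gene as well.
Atp7b: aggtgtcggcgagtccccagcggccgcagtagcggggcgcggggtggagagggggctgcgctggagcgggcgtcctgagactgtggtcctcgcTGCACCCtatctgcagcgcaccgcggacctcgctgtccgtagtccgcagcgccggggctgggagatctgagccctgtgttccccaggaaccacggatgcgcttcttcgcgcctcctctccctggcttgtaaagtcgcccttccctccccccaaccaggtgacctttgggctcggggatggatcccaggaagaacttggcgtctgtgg
For Abcb1b (chr5:8797897-8798196, plus strand), capitals mark CCAAT on either strand, the box to which the factor NF-Y binds in many drug-response genes.
Abcb1b: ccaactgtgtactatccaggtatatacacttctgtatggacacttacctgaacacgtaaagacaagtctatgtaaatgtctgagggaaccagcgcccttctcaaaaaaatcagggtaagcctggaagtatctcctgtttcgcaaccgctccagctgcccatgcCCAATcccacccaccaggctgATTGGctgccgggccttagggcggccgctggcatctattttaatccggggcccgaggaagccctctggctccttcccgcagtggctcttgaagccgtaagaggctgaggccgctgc
For Abcc4 (chr14:118706170-118706469, minus strand), capitals mark the antioxidant response core TGACNNNGC on either strand, the letters read by Nfe2l2, a regulator of several Abcc genes.
Abcc4: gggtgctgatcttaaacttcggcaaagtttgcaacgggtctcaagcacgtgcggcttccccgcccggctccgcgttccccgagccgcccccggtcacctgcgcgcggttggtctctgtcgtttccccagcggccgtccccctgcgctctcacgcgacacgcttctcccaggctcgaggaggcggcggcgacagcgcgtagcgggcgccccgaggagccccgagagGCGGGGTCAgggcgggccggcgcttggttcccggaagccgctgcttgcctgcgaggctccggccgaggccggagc
Abcb1b had 2 CCAAT boxes, as 12.2% of all start regions had 2 or more, and 37.9% had at least 1. Abcc4 had 1 antioxidant core, which 12.5% of start regions held. No match overlapped another in these windows, and a match describes letters in the window and not a bound site. Among the remaining members, Atp7a and Abcc5 each had 2 metal response cores and Abcc4 also had 2, Slc31a2 had 1 such core and 1 antioxidant core at a RefSeq start that lies 23867 bases inside the GENCODE gene, Mt2 also had 1 antioxidant core, and Slc31a1 had 1 CCAAT box.

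The members moved in both directions. Abcb1b and Abcc4 were more than 2-fold higher in sg-kiaa1522, Abcc1 was higher by less than 2-fold, Atp7b was more than 3-fold lower and Mt2 was lower with overlapping groups. Slc31a1, Atp7a, Abcc5 and Mt1 did not pass the test, and the sparsely counted Slc31a2 was higher in a separate fit of genes with at least 10 counts. With the study's filter of more than 500 counts over the libraries, 9 of the 10 members were among the 10046 genes tested. Where the adjusted p did not exceed 0.05 and the change was at least 2-fold, 2 members were higher, against 2.74% of all tested genes, and 1 was lower, against 4.34%. At the adjusted p alone, 3 members were higher and 2 lower, where 26.3% of all tested genes were called higher and 26.3% lower. The share of members called in either direction, 55.6%, stands beside 52.5% for all tested genes, so a call by the adjusted p alone did not set the members apart. The median log2 fold change was 0.15 over the 9 members and -0.007 over all tested genes. Below, rose and fell are used of genes with an adjusted p of at most 0.05 in edgeR's quasi-likelihood test. In bulk RNA, fewer cells with a transcript and less transcript per cell cannot be told apart.

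**Figure D1:**
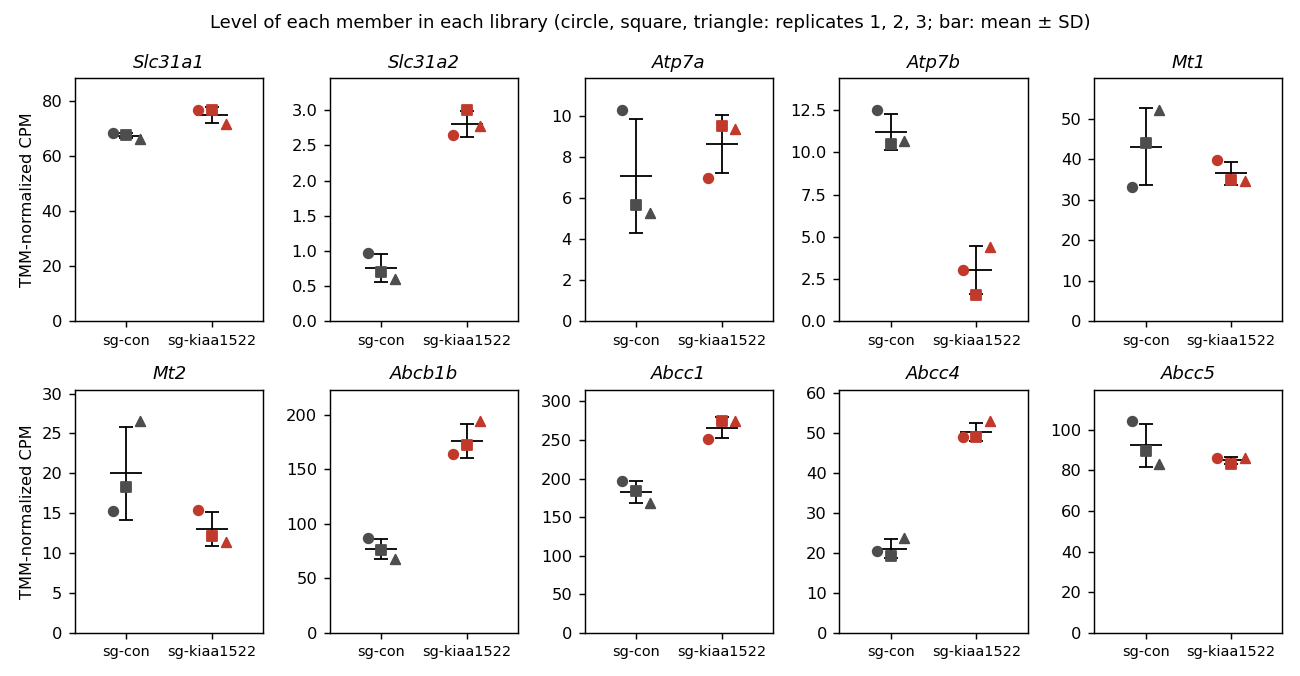
TMM-normalized CPM (linear axis from 0, own scale in each panel) of the 10 members in each library, with circles, squares and triangles for replicates 1, 2 and 3 and bars for the mean ± SD of 3 libraries. The groups are apart for Slc31a1, Slc31a2, Atp7b, Abcb1b, Abcc1 and Abcc4, and overlap for Atp7a, Mt1, Mt2 and Abcc5.

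Of the copper importer family, Slc31a1 did not pass the test and Slc31a2 rose at low counts. Slc31a1 (ENSMUSG00000066150, chr4:62360727-62391769, plus strand), the high-affinity importer at the plasma membrane, measured 68.2, 67.6 and 66.3 CPM in sg-con and 76.5, 76.6 and 71.4 CPM in sg-kiaa1522. The sg-kiaa1522 libraries were all above the sg-con libraries, by little. The fold was 1.11 with a 95% confidence interval from 0.999 to 1.23, and the adjusted p of 0.087 missed the threshold. It stayed above the threshold in each of 12 other fits, and the tested genes of its chromosome had a median log2 fold change of 0.08, from which Slc31a1, at 0.15, differed by 0.07.

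Slc31a2 (ENSMUSG00000066152, chr4:62262562-62298411, plus strand), a relative found mainly on internal vesicles that is known to modulate copper uptake, lies 62.3 kb before Slc31a1. It had only 17, 13 and 10 counts in sg-con and 32, 55 and 47 in sg-kiaa1522, or 0.976, 0.701 and 0.600 CPM against 2.64, 3.00 and 2.77 CPM. Every sg-kiaa1522 library was above every sg-con library, and all were above the floor. Its 174 counts in all were too few for the filter above. In the fit of 14301 genes with at least 10 counts, it rose by 1.88 on the log2 scale (SE 0.257, 95% interval 1.3 to 2.47, adjusted p = 6.8e-04), and it was called in each of 11 alternatives. In that fit 5.53% of genes were called higher and 6.61% lower with a 2-fold change.

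Of the copper ATPases, one fell and the other was not called. Atp7b (ENSMUSG00000006567, chr8:21992785-22060305, minus strand), best known for loading ceruloplasmin and exporting copper in liver, had 217, 195 and 179 counts in sg-con and 37, 29 and 75 in sg-kiaa1522. In CPM these were 12.5, 10.5 and 10.7 against 3.05, 1.58 and 4.42, so that the highest sg-kiaa1522 library lay well under the lowest sg-con library. Atp7b fell by 1.90 on the log2 scale (SE 0.309, 95% interval -2.62 to -1.18, adjusted p = 0.0018), from 11.2 ± 1.06 to 3.02 ± 1.42 CPM (mean ± SD, n = 3 each), or 3.74-fold. It was called in all 12 alternatives, at between -2.32 and -1.57. Most of its 732 counts came from sg-con, so it passed the filter on counts through the group where it is high.

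Its neighbours within 300 kb, looked at after their values were seen, did not all move with it. Nek3, 68.0 kb away, fell by 1.55 in the fit of genes with at least 10 counts (adjusted p = 8.5e-04). Alg11, which starts next to Atp7b on the other strand, measured -0.08 (adjusted p = 0.52) and Vps36 0.13 (adjusted p = 0.22).

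Atp7a (ENSMUSG00000033792, chrX:106027276-106124926, plus strand), the copper ATPase of most tissues outside the liver, measured 10.3, 5.66 and 5.28 CPM in sg-con and 7.0, 9.55 and 9.37 CPM in sg-kiaa1522. The sg-con replicate 1 was the highest of the 6 libraries and the other sg-con libraries were the lowest, so the groups overlapped. The log2 fold change was 0.30 (SE 0.27, 95% interval -0.33 to 0.93, adjusted p = 0.38), and without sg-con replicate 1 it was 0.66 with an adjusted p of 0.019. Without sg-con replicate 2 it was 0.15 (adjusted p = 0.7), and without sg-con replicate 3 it was 0.12 (adjusted p = 0.73). Per exon length, Atp7b made up 61.9, 71.4 and 73.2% of the summed Atp7a and Atp7b TPM (transcript counts scaled to length and library) in sg-con and 36.9, 18.2 and 38.8% in sg-kiaa1522. With the mean transcript length in its place the shares were 45.7, 56.3 and 58.6% and 23.2, 10.3 and 24.7%. With either length Atp7a was the more abundant in every sg-kiaa1522 library, and the sg-con shares were all higher than the sg-kiaa1522 shares. Which of the pair led in sg-con replicate 1 depended on the length.

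**Figure D2:**
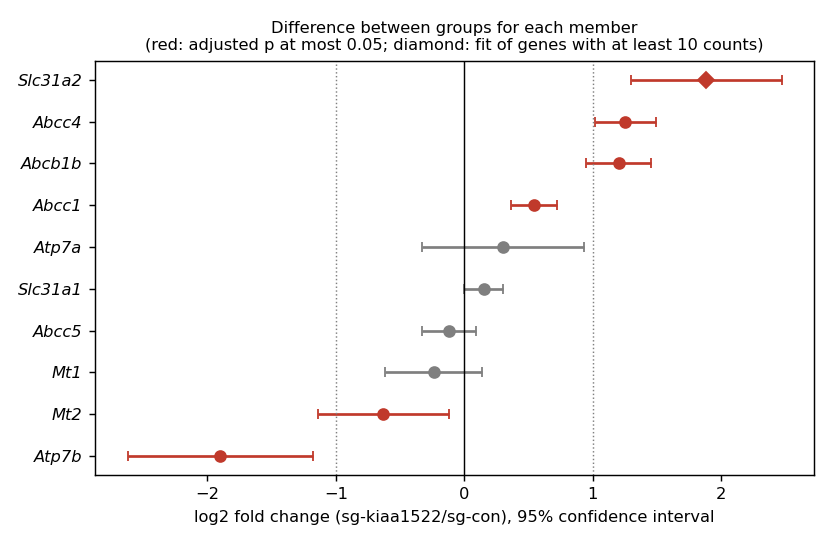
Log2 fold change (sg-kiaa1522 over sg-con) of each member with its 95% confidence interval, in red where the adjusted p was at most 0.05, with dotted lines at 2-fold. Atp7b is lowest at -1.90, Abcb1b and Abcc4 stand at 1.20 and 1.25, and the diamond is Slc31a2 at 1.88 from the fit of genes with at least 10 counts.

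The ABC exporters gave the strongest rises among the 9 tested members. Abcb1b (ENSMUSG00000028970, chr5:8798147-8866315, plus strand), one of the mouse genes for P-glycoprotein, measured 86.9, 75.9 and 67.9 CPM in sg-con and 164, 172 and 194 CPM in sg-kiaa1522. The lowest sg-kiaa1522 library was far above the highest sg-con library. Abcb1b rose by 1.20 on the log2 scale (SE 0.107, 95% interval 0.95 to 1.45, adjusted p = 1.4e-04), a fold of 2.29, and lay between 1.11 and 1.29 in 12 alternatives, all called. Of its 31-base words, 17.4% also occur in transcripts of other genes and 14.8% in those of its paralog Abcb1a. The methods state that uniquely mapped fragments were counted, and how many reads from these stretches were dropped was not tested.

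Abcb1a, the other P-glycoprotein gene, ends 49.6 kb before Abcb1b. It measured 7.29, 5.88 and 4.92 CPM in sg-con and 51.8, 48.0 and 61.4 CPM in sg-kiaa1522. It rose by 3.15 on the log2 scale (SE 0.166, adjusted p = 2.2e-05), a fold of 8.9, more than Abcb1b did, although the difference between the 2 folds was not tested. Per exon length, Abcb1a made up 10.9, 10.2 and 9.55% of the summed TPM of the pair in sg-con and 31.6, 28.9 and 31.6% in sg-kiaa1522, so Abcb1b stayed the more abundant in every library. Together they summed to 94.2, 81.7 and 72.8 CPM in sg-con and 215, 220 and 255 CPM in sg-kiaa1522.

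Abcb4, the phospholipid exporter of bile, starts 27.4 kb after Abcb1b. It and the genes that follow here were chosen after their values were seen, and their changes come from the fit of genes with at least 10 counts. Abcb4 had 12, 11 and 26 counts in sg-con and 61, 73 and 65 in sg-kiaa1522, and rose by 2.18 (SE 0.34, adjusted p = 0.0013). On the far side of Abcb1a, Rundc3b rose by 1.43 (adjusted p = 3.9e-04), Dbf4 by 0.79 (adjusted p = 1.9e-04) and Adam22 by 1.09 (adjusted p = 0.02). Slc25a40, between Rundc3b and Dbf4, measured 0.07 (adjusted p = 0.7). Beyond Abcb4, Crot rose by 0.44 (adjusted p = 0.0037) and Dmtf1 by 0.51 (adjusted p = 0.018), and Tmem243 measured -0.25 (adjusted p = 0.092). The 3 Abcb genes lie side by side and all rose, and so did most genes with at least 100 counts on either side. In this fit, 3184 of the 14301 genes were called higher at the adjusted p alone.

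**Figure D3:**
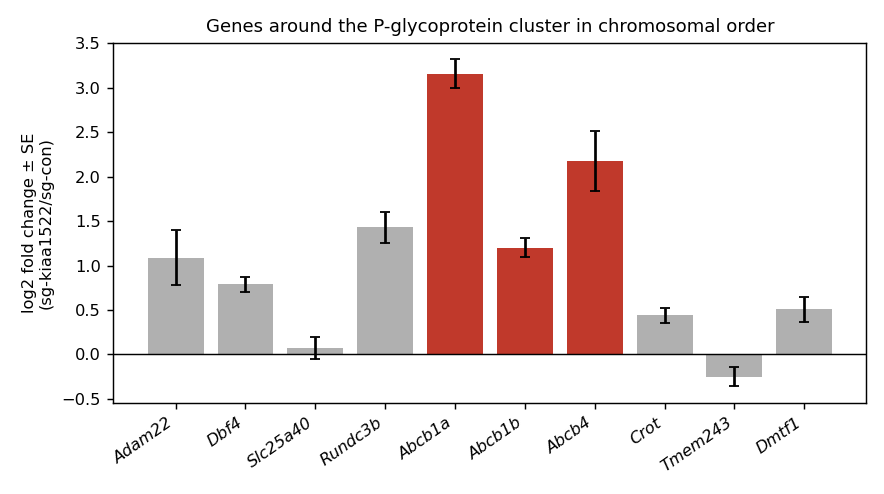
Log2 fold change ± SE (sg-kiaa1522 over sg-con, fit of genes with at least 10 counts) of the genes with at least 100 counts in and within 300 kb of the Abcb genes, in chromosomal order and not to scale. The Abcb genes are in red, with Abcb1a highest at 3.16, Abcb4 at 2.18 and Abcb1b at 1.20. Adam22, Dbf4, Rundc3b, Crot and Dmtf1 also lie above 0, while Slc25a40 and Tmem243 lie near or under 0.

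Abcc1 (ENSMUSG00000023088, chr16:14361558-14475737, plus strand), which expels glutathione conjugates, measured 197, 184 and 168 CPM in sg-con and 251, 274 and 274 CPM in sg-kiaa1522. The groups were apart. Abcc1 rose by 0.54 on the log2 scale (SE 0.0764, 95% interval 0.36 to 0.72, adjusted p = 9.6e-04), a fold of 1.46. It was called in all 12 alternatives without reaching 2-fold in any of them, at between 0.48 and 0.59.

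Abcc4 (ENSMUSG00000032849, chr14:118482692-118706219, minus strand), an exporter of cyclic nucleotides and nucleotide analogs, measured 20.4, 19.2 and 23.8 CPM in sg-con and 49.0, 49.0 and 52.9 CPM in sg-kiaa1522. The sg-kiaa1522 values lay close together and well above the sg-con values. Abcc4 rose by 1.25 (SE 0.101, 95% interval 1.02 to 1.49, adjusted p = 9.9e-05), a fold of 2.38. The 343 tested genes of chromosome 14 had a median log2 fold change of -0.38, so Abcc4 moved against its chromosome, by 1.63 from that median.

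Abcc5 (ENSMUSG00000022822, chr16:20331303-20426394, minus strand), a related exporter of cyclic nucleotides, measured 104, 89.6 and 83.3 CPM in sg-con and 85.8, 83.0 and 85.9 CPM in sg-kiaa1522. The groups overlapped, with sg-con replicate 1 the highest. The log2 fold change was -0.12 (SE 0.0899, 95% interval -0.33 to 0.09, adjusted p = 0.29), and the interval leaves room for a fold between 0.796 and 1.06.

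The metallothioneins were lower in sg-kiaa1522 on average, with overlapping groups. Mt1 (ENSMUSG00000031765, chr8:94179082-94180327, plus strand) measured 33.1, 44.0 and 52.1 CPM in sg-con and 39.9, 34.9 and 34.7 CPM in sg-kiaa1522. One sg-con library was the lowest of all 6 and the other sg-con libraries were the highest. The log2 fold change was -0.24 (SE 0.161, 95% interval -0.62 to 0.14, adjusted p = 0.24).

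Mt2 (ENSMUSG00000031762, chr8:94172664-94173568, plus strand) ends 5.5 kb before Mt1 and measured 15.3, 18.3 and 26.5 CPM in sg-con and 15.4, 12.2 and 11.4 CPM in sg-kiaa1522. The sg-con libraries were scattered, and replicate 1 of each group lay at nearly the same level. Mt2 fell by 0.63 (SE 0.217, 95% interval -1.14 to -0.12, adjusted p = 0.042), close to the threshold. Among the fits that leave out 1 library, the call was lost without sg-con replicate 2 (-0.70, adjusted p = 0.064), without sg-con replicate 3 (-0.38, adjusted p = 0.1), without sg-kiaa1522 replicate 2 (-0.58, adjusted p = 0.12) and without sg-kiaa1522 replicate 3 (-0.54, adjusted p = 0.13). An antisense gene, Gm45774, shares 73.5% of the exon length of Mt2 and has no entry of its own in the count tables. Whether the counting used strand was not given in the sources used here, so reads of the pair may not be told apart.

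Mt1 and Mt2 together summed to 48.4, 62.3 and 78.6 CPM in sg-con and 55.3, 47.1 and 46.1 CPM in sg-kiaa1522, again with overlap. Per exon length, Mt2 made up 49.5, 46.8 and 51.9% of their summed TPM in sg-con and 45.0, 42.5 and 41.1% in sg-kiaa1522. These shares did not overlap although the levels did. The other metallothionein genes were hardly counted, with 35 counts of Mt3 over the 6 libraries and no count of Mt4.

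Library levels varied with gene length in sg-con replicate 1. Against the other sg-con libraries, that library had a median log2 difference of -0.171 over the 2508 tested genes of shortest exon length (151 to 2912 bases) and 0.178 over the 2507 of the longest (from 7030 bases). In the other 5 libraries these medians lay between -0.122 and 0.11. The short Mt1 and Mt2 (1246 and 588 bases) were lowest among the sg-con libraries in replicate 1. The long Atp7a, Abcb1b, Abcc5 and Abcc1 (8734, 7990, 10681 and 15092 bases) were highest in it. Slc31a2, at 2033 bases also in the short class, went against the pattern and was highest in it too. Without that library, Mt1 measured -0.41 (adjusted p = 0.016), Mt2 -0.80 (adjusted p = 0.013) and Atp7a 0.66 (adjusted p = 0.019), each called. Without sg-con replicate 3 in its place, Mt1 measured -0.09 (adjusted p = 0.65), Mt2 -0.38 (adjusted p = 0.1) and Atp7a 0.12 (adjusted p = 0.73), none called. The part of the length pattern in these values was not tested.

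**Figure D4:**
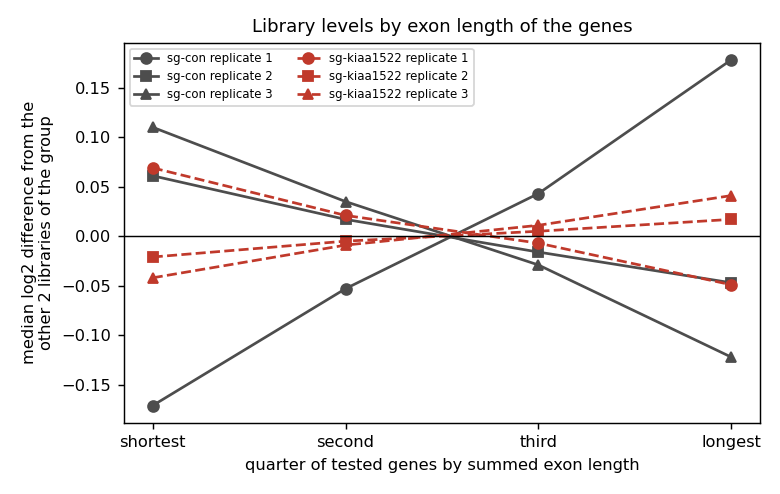
Median log2 difference of each library from the other 2 libraries of its group, over the tested genes split into 4 classes of equal size by summed exon length. The line of sg-con replicate 1 runs from -0.171 for the shortest to 0.178 for the longest genes, more steeply than any other.

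Levels were compared between members per length, as TPM from the summed exon length. In sg-con, Mt1 (88.4) and Mt2 (87.2) led, followed by Slc31a1 (40.4), Abcc1 (31.1), Abcb1b (24.7), Abcc5 (22.2), Abcc4 (8.47), Atp7b (4.44), Atp7a (2.09) and Slc31a2 (0.961). The ranges of Mt1 and Mt2 overlapped, as did those of Abcc1 and Abcb1b and those of Abcb1b and Abcc5, and the other neighbours in this order were apart. In sg-kiaa1522 the mean TPM of Abcb1b, 60.4, was the same as that of Mt2, 60.4, below Mt1 at 80.1. Abcc1 (48.3) and Slc31a1 (47.8) followed with overlapping ranges, then Abcc5 (21.7) and Abcc4 (21.5) with overlapping ranges. Slc31a2 (3.77) and Atp7a (2.71) now stood above Atp7b (1.27). With the mean transcript length in place of the summed exon length, the order of the upper 6 changed, with Abcc1 first in sg-con and Abcb1b first in sg-kiaa1522, whereas the lower 4 kept their places.

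Of 75 other genes of copper and zinc handling, platinum entry, drug export and ABC transport, 50 were tested, and 7 rose and 20 fell at the adjusted p alone. The 14.0% that rose and 40.0% that fell stand beside 26.3% and 26.3% of all tested genes, and the 54.0% called in either direction beside 52.5%. Of 10 tested copper chaperones and reductases, 2 rose and 3 fell, with a median of 0.04. Steap3, a metalloreductase of iron and copper, measured 10.9, 9.71 and 6.90 CPM in sg-con and 44.9, 41.4 and 36.6 CPM in sg-kiaa1522, and rose by 2.16 (SE 0.173, adjusted p = 9.9e-05). Atox1, the chaperone that hands copper to Atp7a and Atp7b, was lower in every sg-kiaa1522 library, at 16.8, 13.9 and 15.4 CPM against 20.9, 31.1 and 26.4 CPM, and fell by 0.77 (SE 0.157, adjusted p = 0.005). Sco2, which delivers copper to cytochrome oxidase, rose by 0.51 (adjusted p = 0.031) and was called in 8 of 12 alternatives. The chaperone and the ATPase Atp7b it serves thus both fell, while Atp7a was not called.

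Of 15 tested zinc genes, 4 rose (26.7%) and 3 fell (20.0%), beside 26.3% in each direction over all tested genes, with log2 fold changes from -0.60 to 0.98 and a median of 0.06. The zinc exporter Slc30a4 rose by 0.98 (adjusted p = 2.1e-04) and the importer Slc39a6 by 0.71 (adjusted p = 1.2e-04), whereas the importer Slc39a14 fell by 0.60 (adjusted p = 3.6e-04). Mtf1, the activator of the metallothionein genes, had a log2 fold change of 0.19 (adjusted p = 0.13), which did not pass the test. Of 7 tested genes for other entry routes, the organic cation transporters and the LRRC8 volume-regulated channels that can admit cisplatin, 2 fell (28.6%, beside 26.3%) and 0 rose in edgeR's test. At an unadjusted p under 0.05, 3 were lower and 0 higher, and DESeq2 called 1 lower and 0 higher. Lrrc8e, a channel subunit, fell by 0.39 (adjusted p = 0.0098), and the carnitine transporter Slc22a5 fell by 0.28 (adjusted p = 0.036), called in 4 of 12 alternatives. Lrrc8d, the subunit tied to platinum uptake, was chosen after its values were seen, since a single library stood apart. It measured 28.6, 31.7 and 32.6 CPM in sg-con and 27.4, 29.8 and 9.95 CPM in sg-kiaa1522, and was not called. The other channel subunits, also named after their values were seen, were not called and went both ways. Lrrc8a was 18.2 to 26.3 CPM in sg-con and 26.9 to 37.7 CPM in sg-kiaa1522 (log2 fold change 0.41, adjusted p = 0.09). Lrrc8b measured -0.26 (adjusted p = 0.078) and Lrrc8c 0.08 (adjusted p = 0.31).

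A list of 10 genes held 9 other ABC exporters and Mvp, the major vault protein, which is no transporter of this family. Of its 4 tested genes, Abcb1a rose (25%), and Abcc3, Abcc10 and Mvp fell (75%), beside 26.3% in each direction over all tested genes. Mvp, named after its values were seen, fell by 0.41 (adjusted p = 0.0019). Abcc3, an exporter of bile salts and glucuronides, measured 11.1, 13.6 and 13.4 CPM in sg-con and 6.51, 5.84 and 5.30 CPM in sg-kiaa1522, and fell by 1.12 (SE 0.138, adjusted p = 5.5e-04). Abcc10 fell by 0.70 (adjusted p = 7.4e-04). Abcg2, the breast cancer resistance protein, had too few counts for the filter and was looked at after its values were seen. At 4.07, 4.64 and 3.60 CPM in sg-con and 0.906, 0.600 and 0.471 CPM in sg-kiaa1522, it fell by 2.66 in the fit of genes with at least 10 counts (SE 0.267, adjusted p = 1.6e-04). Of 14 tested ABC transporters with other cargo, 9 fell (64.3%, beside 26.3% of all tested genes) and 0 rose (0.0%, beside 26.3%) in edgeR's test. At an unadjusted p under 0.05, 10 were lower and 3 higher, and DESeq2 called 9 lower and 3 higher. The median was -0.35, and those that fell included Abcb8 (-0.79, adjusted p = 0.0022) and Abca3 (-0.64, adjusted p = 1.7e-04).

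**Figure D5:**
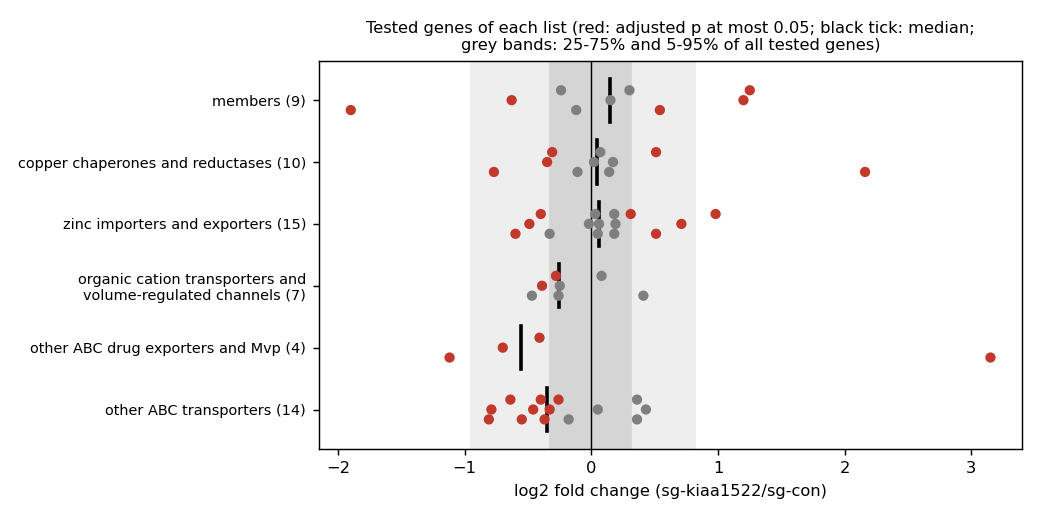
Log2 fold change (sg-kiaa1522 over sg-con) of the tested genes of each list, with the number tested in brackets, in red where the adjusted p was at most 0.05, a black tick at each median and grey bands for the middle of all tested genes. The median of the 9 tested members is 0.15, that of the other ABC transporters is -0.35, and Abcb1a stands farthest to the right at 3.15.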

How the data were processed

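RNA-seq of 3 sg-con and 3 sg-kiaa1522 libraries was analysed. The authors deposited whole-number counts per gene without normalization. Per the submitters' processing notes and the methods, reads were aligned with HISAT2 2.0.4 to GRCm38 and counted with StringTie 1.3.0 from uniquely mapped fragments, and the annotation release and strand setting were not given in the sources used here. Groups and replicate numbers came from the labels. Positions and exon lengths were read from GENCODE M21 (GRCm38), where 34344 of the 34745 gene identifiers were found, and start regions from RefSeq.

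Genes whose counts summed to more than 500 were fitted with the quasi-likelihood test of edgeR 4.0.16 (R 4.3.3) on TMM-normalized counts without covariates, with Benjamini-Hochberg adjustment over 10046 genes. The threshold was an adjusted p of at most 0.05, alone or together with a log2 fold change of 1 or more in either direction. Slc31a2 and genes under the filter were taken from a fit of genes with at least 10 counts. CPM used the TMM factors (0.9894 to 1.01), and TPM was computed from the counts. Alternatives were DESeq2 1.42.0, RLE factors, library size alone, 2 other filters, a replicate block and each library left out. The test was tested on simulated data.

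No library repeats another of its group (chi-square of 12.3 or more for each degree of freedom). Members and gene lists were chosen with earlier results of these data known. The genes named are the members, C77080, and in each list up to 3 genes with the largest log2 fold change among those with an adjusted p of at most 0.05, and other genes, among them the cell type markers, Mtf1, Mt3, Mt4 and those the text marks, were named after their values were seen. One gene that this rule names is not reported here.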

Additional observations from a re-analysis of the deposited data

How the results depend on the processing

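No log2 fold change of a member changed sign in any alternative. Of 119 alternative fits of the members, 66 kept a call and 46 stayed without one, 2 gained it (Atp7a and Mt1 without sg-con replicate 1) and 5 lost it, all of Mt2. With the replicate block Mt2 measured an adjusted p of 0.086 and 1 member in place of 2 was lower at the adjusted p alone, and leaving out 1 library gave between 1 and 3. The block changed no other call of a member. The replicate numbers do not pair the libraries, since deviations of same-numbered libraries correlated at -0.21, -0.051 and -0.17. Among the other pathway genes, 5 were higher and 2 lower by 2-fold with at least 10 counts, and 5 and 2 with at least 1 count, against 2 and 1, because more genes were tested, and 13 against 7 were higher at the adjusted p alone with at least 1 count. Over all genes, 791 were higher and 946 lower by 2-fold with at least 10 counts, and 767 and 941 with at least 1 count, against 275 and 436. Subtracting the chromosome median moved Slc31a1 to 0.07 and Abcc4 to 1.63 and the other 8 members by less than the SE of their log2 fold change. Atp7a, Slc31a2 and Atp7b rest on counts of 10 to 217 per library, which limits their precision. Floors cover counting error only.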
